A study of Homo sapiens with 15 samples.

Results

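The HOX genes and their TALE homeodomain cofactors were followed in BEAS-2B cells, a line established from human bronchial epithelium, during exposure to nanoplastics of polyethylene terephthalate (PET-NPLs). Rows of the count table were taken by Entrez gene number, which gave 45 genes of the 28395 in the table: 38 HOX genes (10 of the HOXA, 10 of the HOXB, 9 of the HOXC and 9 of the HOXD cluster) and 7 TALE genes (MEIS1, MEIS2, MEIS3, PBX2, PBX3, PBX4 and PKNOX2). Total RNA depleted of ribosomal RNA was sequenced from 15 samples. Both early time points, 24 h and 15 weeks, had 2 controls and 2 exposed samples each. At 30 weeks there were 3 controls and 4 exposed samples. Exposed cells received PET-NPLs at 50 µg/mL, and controls were unexposed cells of the same passage. The 24 h and 15-week samples are labelled batch 1 and the 30-week samples batch 2, so exposure was compared within a batch, while 30 weeks and batch 2 cannot be told apart. Samples held between 23143202 and 31459990 counts on genes. BEAS-2B is a single immortalised line grown in medium with serum, and nothing in the labels or methods says that replicates came from separate cultures, so p-values measure the spread between these samples, which may be technical.

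HOX genes encode homeodomain transcription factors that give cells their position along the head-to-tail axis of the embryo, and adult cells such as fibroblasts and lung cells keep part of the pattern. The genes lie side by side in 4 clusters, and their order on the chromosome, which the paralogue number follows, matches where and when they are active, low numbers anteriorly and high numbers posteriorly. MEIS, PBX and PKNOX proteins belong to the TALE class of homeodomain factors, bind DNA together with HOX proteins and sharpen their choice of sites; MEIS and PKNOX proteins also bind PBX partners and help bring them into the nucleus.

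Levels are given as CPM (a gene's counts scaled to a common library size, after TMM scaling). Changes are log2 fold changes from edgeR's quasi-likelihood model. Their standard error (SE) is approximate, being the size of the log2 fold change over the square root of the test's F. A gene was called when its p, adjusted by Benjamini-Hochberg over the 16740 genes tested, was under 0.05. Of the 45 genes, 29 passed the filter on low counts (0.350 CPM, or 10 counts in a library of median depth, in at least 2 samples): 6 HOXA, 8 HOXB, 8 HOXC and all 7 TALE genes. The 16 that did not pass were HOXA4, HOXA6, HOXA7, HOXA9, HOXB1, HOXB8, HOXC12 and the 9 HOXD genes. Of these, 11 were at 0 counts in every sample, and HOXD12 had 1 count in a single library. The whole HOXD cluster, on chromosome 2, was therefore not detectable at this depth.

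The labelled cell type was checked against its markers. KRT8 and KRT18, keratins of simple epithelium, were present in all groups (means of 149.9 to 616.3 CPM for KRT8), whereas TP63, a basal cell factor, and NKX2-1, FOXA2 and FOXJ1, factors of airway identity, held 3 counts or fewer per sample. VIM, an intermediate filament of mesenchymal cells, was the most abundant of the mesenchymal markers. FOXA1, another factor of airway epithelium, held 174 to 232 counts per sample at 24 h and at most 16 in any later sample. KRT19 held 263 to 346 counts at 24 h and at most 114 later.

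**Figure D1:**
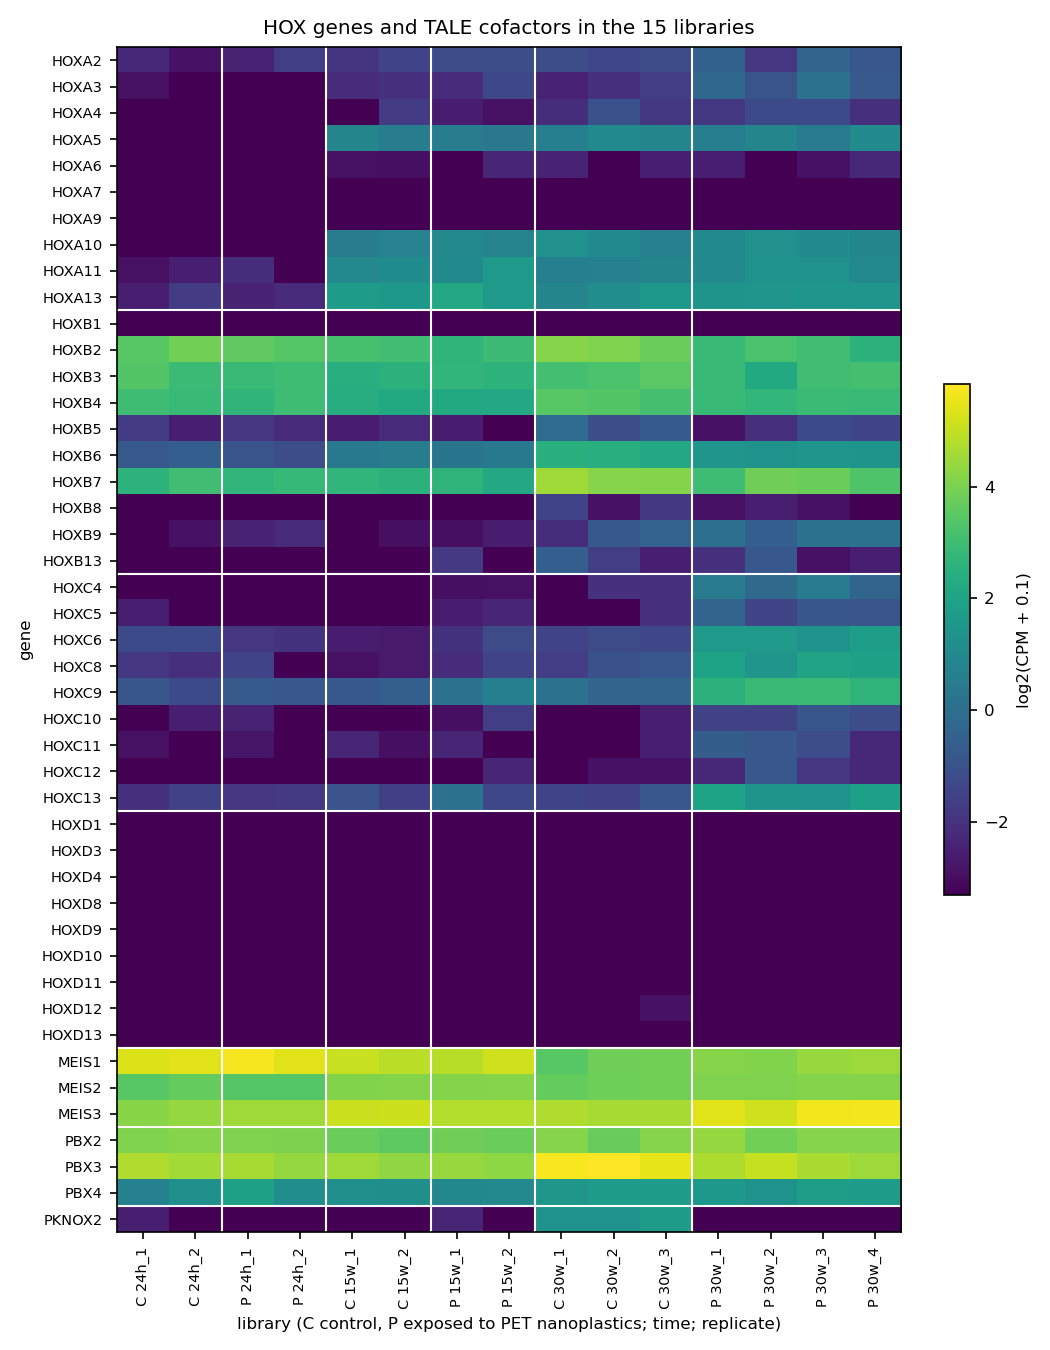
Level of the 45 HOX and TALE genes (rows, by cluster or family) in the 15 samples (columns, by group), coloured by log2(CPM + 0.1). The HOXD rows are empty. The HOXC rows are brighter in the 4 exposed samples at 30 weeks than in the 30-week controls, though HOXC5, HOXC10, HOXC11 and HOXC12 stay dim. HOXA5, HOXA10, HOXA11 and HOXA13 are dark at 24 h and lit at 15 and 30 weeks.

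After 30 weeks the HOXC cluster was higher in exposed than in control cells, and most of the abundant HOXB genes were lower. The 9 HOXC genes together were at 1.97 ± 0.341 CPM in controls (SD, n = 3, range 1.72 to 2.36) and at 18.6 ± 0.699 CPM in exposed cells (SD, n = 4, range 17.8 to 19.3). The sum of the 10 HOXB genes was 61.6 ± 5.39 CPM in controls and 37.2 ± 3.48 CPM in exposed cells. The HOXA sum was 8.28 CPM in controls (range 7.70 to 8.63) and 9.94 CPM in exposed cells (range 9.54 to 10.6). No exposed sample overlapped a control in the HOXA, the HOXB or the HOXC sum. As a share of all HOX CPM, not corrected for gene length, HOXC accounted for 2.24% to 3.49% in controls, compared with 26.8% to 31.2% in exposed samples. The HOXB share was 83.7% to 87.7% and 53.4% to 58.3%, respectively. In bulk RNA, fewer cells that carry a transcript and less of it per cell cannot be told apart.

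In the comparison of exposed with control cells at 30 weeks, 18 of the 29 genes tested were called, 12 higher and 6 lower. Among all genes tested, 12% were called higher and 11.7% lower. The median change of the 29 genes was 0.31 on the log2 scale, against 0.01 over all genes. The filter matters here. A set of 6 genes (HOXA3, HOXC4, HOXC5, HOXC6, HOXC10 and HOXC11) passed the filter only through the exposed 30-week samples, and HOXB5 and PKNOX2 only through the 30-week controls. Such a gene had to differ between groups, so the count of calls is a description, and the values are given below. The count fell to 11 without control replicate 1 at 30 weeks. Both groups stood apart with no overlap in 13 genes that were higher and 7 that were lower in exposed cells, against 14.3% and 13% of all genes.

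HOXC9 (Entrez 3225, chr12:54000161-54003337 in GRCh38.p14), a posterior gene of the cluster, held 0.989, 0.686 and 0.680 CPM in the 30-week controls. The exposed samples held 5.76, 7.32, 7.40 and 6.06 CPM. All 4 exposed samples lay above every control. The means were 0.785 ± 0.177 and 6.64 ± 0.851 CPM (SD), a log2 fold change of 3.08 (SE 0.24, adjusted p = 1.17e-07 by edgeR's quasi-likelihood test). HOXC9 passed the filter through other groups as well, as did HOXC8 and HOXC13, the next genes given.

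HOXC8 (3224, chr12:54008985-54012769), a central gene known from the thoracic region of the embryo, held 0.215, 0.397 and 0.465 CPM in controls. In the exposed samples it held 3.91, 2.66, 3.93 and 3.73 CPM. Every exposed sample was several-fold above every control, the lowest being replicate 2. The log2 fold change was 3.27 (SE 0.41, adjusted p = 2.37e-05). HOXC13 (3229, chr12:53938831-53946544), the last gene of the cluster and a regulator of hair keratins, held 0.258, 0.253 and 0.465 CPM in controls and 3.91, 2.56, 2.43 and 3.49 CPM in exposed cells. The groups did not overlap, and the log2 fold change was 3.22 (SE 0.40, adjusted p = 2.56e-05).

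HOXC6 (3223, chr12:54016888-54030823), a gene of thoracic identity, was steady among controls at 0.258, 0.325 and 0.286 CPM. It reached 2.90, 3.01, 2.54 and 3.34 CPM in exposed samples, with a log2 fold change of 3.32 (SE 0.29, adjusted p = 5.05e-07). Its spread within each group was small beside the gap. HOXC4 (3221, chr12:54016888-54056030) had 0, 4 and 4 counts in controls and 35, 23, 37 and 19 counts in exposed samples, or 0.0959 ± 0.083 and 1.01 ± 0.317 CPM (log2 fold change 3.27, SE 0.60, adjusted p = 0.00159). HOXC5 (3222, chr12:54016888-54035361) had 0, 0 and 4 counts and then 19, 8, 13 and 12 counts (3.09, SE 0.83, adjusted p = 0.0159). No exposed sample of either gene fell to the level of a control. In the annotation HOXC4, HOXC5 and HOXC6 share their first base, and each contains the next, so reads in shared exons may not be told apart between them.

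The posterior genes HOXC10 and HOXC11 were near the limit of detection. HOXC10 had 0, 0 and 2 counts in controls and 7, 7, 13 and 10 counts in exposed samples (adjusted p = 0.0205). HOXC11 had 0, 0 and 2 counts and then 15, 13, 10 and 3 counts (adjusted p = 0.0153). HOXC12, which was not tested, had 0, 1 and 1 counts in controls and 3, 13, 5 and 3 counts in exposed samples. For all 3 genes the exposed samples held more counts than any control, but the lowest exposed values of HOXC11 and HOXC12 were 3 counts. HOXC5, HOXC10 and HOXC11 lost their calls without control replicate 1 (adjusted p 0.0659, 0.0820 and 0.0660) and without control replicate 2 (0.0572, 0.0722 and 0.0583). The HOXC11 call was also lost with limma-voom and surrogate variables (adjusted p = 0.0573). HOXC4, HOXC6, HOXC8, HOXC9 and HOXC13 kept theirs whichever library was left out. The filter was not redone for these omissions. For HOXC4 and HOXC6, which passed it only through the exposed 30-week samples, the kept calls are therefore a description.

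The shared start of HOXC4 and HOXC5 is shown because both genes rose and have 1 promoter in RefSeq. The 250 bases before that start (GRCh38.p14, chr12:54016638-54016887, plus strand, 5′ to 3′, CpG in capitals) held 14 CpG and 50.8% G and C.
HOXC4 and HOXC5: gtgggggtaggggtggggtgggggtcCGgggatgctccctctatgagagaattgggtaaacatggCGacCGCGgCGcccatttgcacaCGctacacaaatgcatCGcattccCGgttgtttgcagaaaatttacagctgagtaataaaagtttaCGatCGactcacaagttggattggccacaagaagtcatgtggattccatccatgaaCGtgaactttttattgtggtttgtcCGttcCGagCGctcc

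**Figure D2:**
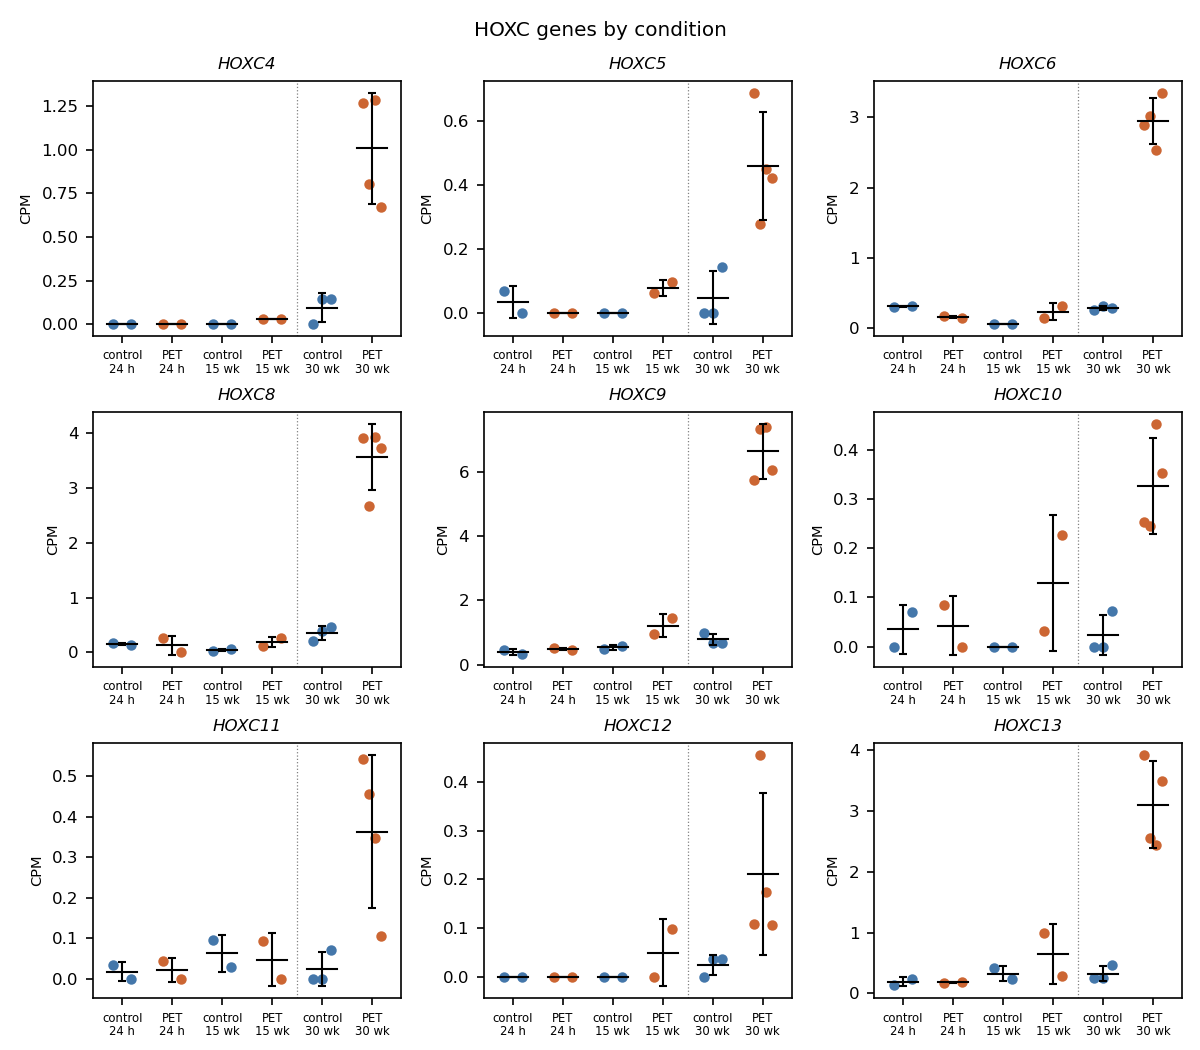
CPM of the 9 HOXC genes in each sample (points) with the mean and SD of each group, by time point; control and exposed cells are drawn in separate colours, and the dotted line separates batch 1 from batch 2. The 4 exposed samples at 30 weeks lie above the 30-week controls in each panel, and HOXC6, HOXC8 and HOXC9 show exposed samples above their controls at 15 weeks as well.

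In the HOXB cluster on chromosome 17, 4 of the 8 genes tested were called lower and none higher, against 11.7% and 12% of all genes, with a median of -0.69 over the 8. HOXB2 (3212, chr17:48542655-48545109), an anterior gene of the hindbrain pattern, held 18.1, 16.7 and 13.2 CPM in controls and 7.10, 9.15, 8.17 and 5.84 CPM in exposed samples. All exposed samples were lower than all controls (16.0 ± 2.54 against 7.56 ± 1.42 CPM, log2 fold change -1.08, SE 0.17, adjusted p = 0.000236). HOXB6 (3216, chr17:48595751-48604986) held 5.50, 5.31 and 4.55 CPM in controls and 2.64, 2.45, 2.68 and 2.61 CPM in exposed samples. The exposed samples were nearly identical for this central gene (2.59 ± 0.0989 CPM), and the log2 fold change was -0.98 (SE 0.17, adjusted p = 0.000432).

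HOXB7 (3217, chr17:48607232-48611017), a central gene often studied in epithelial tumours, held 22.8, 17.8 and 17.6 CPM in controls and 7.82, 14.3, 13.5 and 9.93 CPM in exposed samples. The groups did not overlap, although the exposed samples were spread widely (11.4 ± 3.04 CPM, log2 fold change -0.77, SE 0.19, adjusted p = 0.00902). HOXB4 (3214, chr17:48575507-48578350), known from blood stem cells, was at 10.8, 10.4 and 8.70 CPM in controls and 7.17, 6.59, 7.44 and 7.36 CPM in exposed samples (-0.48, SE 0.14, adjusted p = 0.0174). Without control replicate 1 the adjusted p was 0.0652 for HOXB7 and 0.0785 for HOXB4, and without control replicate 2 it was 0.0524 for HOXB4. The HOXB4 call was also lost with limma-voom and surrogate variables (adjusted p = 0.0712) and when only the groups compared were fitted (0.0525). HOXB2 and HOXB6 kept their calls whichever library was left out.

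The other HOXB genes were not called. HOXB3 ranged from 8.39 to 11.3 CPM in controls and from 4.66 to 8.77 CPM in exposed cells, with overlap (adjusted p = 0.127). HOXB5 had 19, 10 and 15 counts against 1, 4, 9 and 8 counts (adjusted p = 0.0643). HOXB9, a posterior gene, had 3, 13 and 18 counts against 25, 16, 28 and 28 counts, and its log2 fold change of 1.01 was positive (adjusted p = 0.127). These 3 genes did not share one direction. HOXB13 had 13, 6 and 2 counts against 4, 13, 1 and 2 counts. HOXB8, which was not tested, had 6, 1 and 5 counts in controls and 1, 2, 1 and 0 counts in exposed cells.

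In the HOXA cluster on chromosome 7, 1 of the 6 genes tested was called higher at 30 weeks and none lower, against 12% and 11.7% of all genes, and that gene, HOXA3, passed the filter only through the exposed 30-week samples. HOXA3 (3200, chr7:27107010-27152583), an anterior gene needed for the thymus and parathyroid, had 2, 4 and 6 counts in controls and 21, 12, 29 and 14 counts in exposed samples. The groups did not overlap (0.148 ± 0.0645 and 0.671 ± 0.268 CPM, log2 fold change 2.12, SE 0.53, adjusted p = 0.00983). HOXA13, HOXA10 and HOXA5 had log2 fold changes of 0.23, 0.03 and -0.10, with 95% intervals from -0.22 to 0.68, from -0.43 to 0.49 and from -0.58 to 0.39. HOXA11 was at 0.48 (95% interval -0.05 to 1.01, adjusted p = 0.215), although its exposed samples lay above all controls. The intervals of all 4 leave out a change of the size seen in HOXC9. HOXA2, also tested and not called, had 8, 8 and 9 counts in controls and 17, 5, 20 and 13 counts in exposed samples, with overlap.

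**Figure D3:**
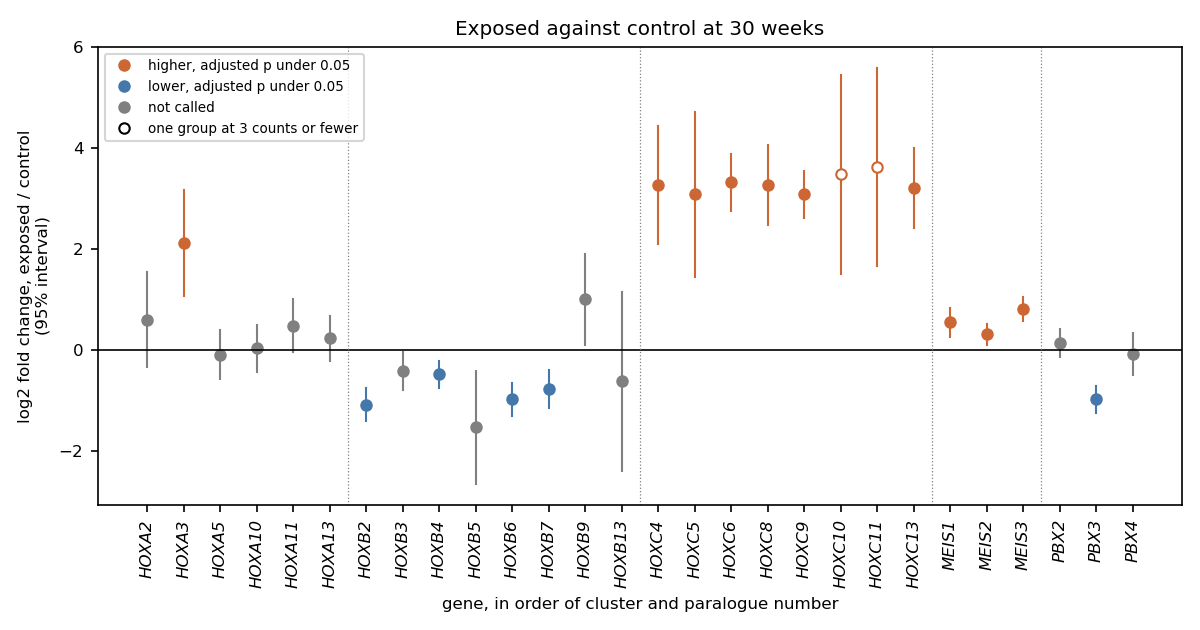
Log2 fold change of exposed against control cells at 30 weeks for 28 tested HOX and TALE genes, with the 95% interval; open symbols mark HOXC10 and HOXC11, for which no control sample exceeded 3 counts, and PKNOX2, at 0 counts in all exposed samples, is not drawn. HOXC genes lie around 3, HOXB2, HOXB6 and PBX3 near -1, and HOXA5 and HOXA10 near 0.

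By paralogue number, 13 anterior and central HOX genes (groups 2 to 8) and 9 posterior HOX genes (groups 9 to 13) were tested. Of the anterior and central genes, 5 were called higher and 4 lower. Of the posterior genes, 4 were called higher and none lower, and all 4 belonged to HOXC. Against the 12% and 11.7% of all genes these counts are a description, since 6 of the 9 genes called higher passed the filter only through the exposed samples. The called HOXC genes spanned paralogue groups 4 to 13, and the called HOXB genes groups 2 to 7, so genes of the same paralogue group could differ in direction (HOXB4 lower and HOXC4 higher, HOXB6 lower and HOXC6 higher).

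Among the cofactors, the MEIS genes were higher in exposed cells and PBX3 and PKNOX2 lower. MEIS3 (56917, chr19:47403124-47422233) held 26.9, 24.8 and 25.0 CPM in controls and 41.9, 36.3, 50.3 and 50.9 CPM in exposed samples. The groups were well separated (25.6 ± 1.15 and 44.9 ± 7.04 CPM, log2 fold change 0.81, SE 0.12, adjusted p = 0.000176). MEIS1 (4211, chr2:66435125-66573869), a partner of HOXA9 in leukaemia, held 10.97, 14.4 and 14.9 CPM in controls and 17.7, 17.3, 21.5 and 22.4 CPM in exposed samples (0.55, SE 0.15, adjusted p = 0.0120). MEIS2 (4212, chr15:36889204-37101311) held 12.8, 13.9 and 14.7 against 16.8, 16.7, 17.5 and 17.6 CPM (0.31, SE 0.11, adjusted p = 0.0491). No exposed sample overlapped a control in any of the 3. The MEIS1 call was lost without control replicate 1 (adjusted p = 0.0692) and when only the groups compared were fitted (0.0575). The MEIS2 call was lost without either of control replicates 1 and 2 or any of exposed replicates 1, 3 and 4, with adjusted p between 0.0825 and 0.147, and in 5 other alternatives, among them limma-voom with surrogate variables (0.106).

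PBX3 (5090, chr9:125747373-125967377), a partner of HOX proteins that binds them through their hexapeptide, held 53.9, 57.1 and 45.6 CPM in controls and 26.0, 32.5, 25.2 and 22.4 CPM in exposed samples. All exposed samples were below all controls (52.2 ± 5.97 against 26.5 ± 4.27 CPM, 1.97-fold lower, log2 fold change -0.98, SE 0.13, adjusted p = 6.11e-05). PKNOX2 (63876, chr11:125164751-125433389), a PBX partner, had 59, 70 and 89 counts in controls (2.75 ± 0.377 CPM) and 0 counts in all 4 exposed samples. Against a floor of 3 counts per library this is at least 25.3-fold lower (adjusted p = 1.53e-05). PBX2 held 17.9, 12.9 and 17.9 CPM in controls and 20.7, 14.6, 17.9 and 18.1 CPM in exposed samples, with a log2 fold change of 0.13 (95% interval -0.15 to 0.41). PBX4 was at -0.07 (95% interval -0.48 to 0.34). The PBX genes thus did not share one change, and both intervals leave out a change as large as that of PBX3.

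**Figure D4:**
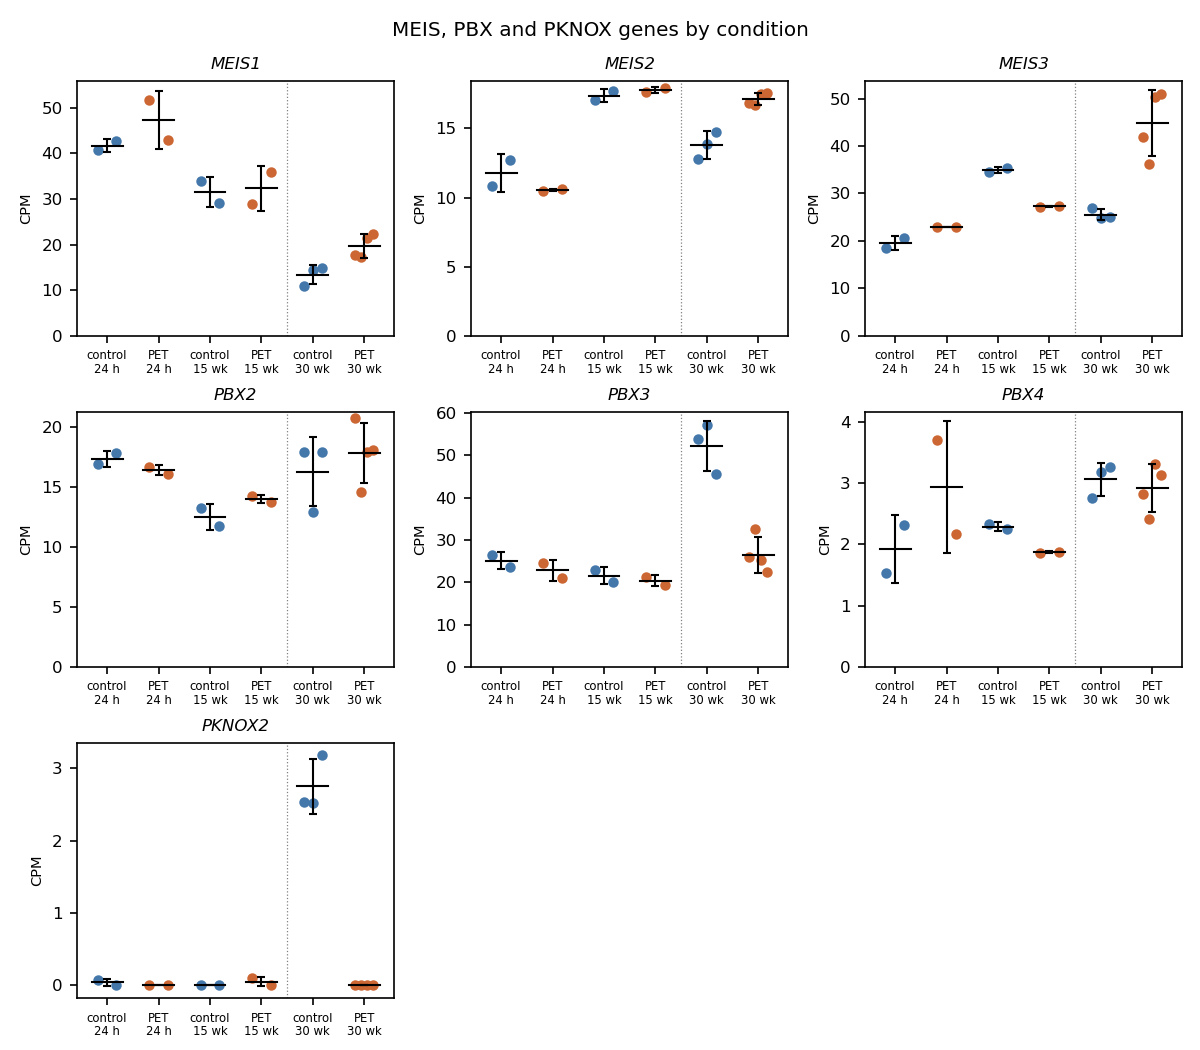
CPM of the 7 TALE genes in each sample (points) with the mean and SD of each group, by time point, with a dotted line between batch 1 and batch 2. At 30 weeks the MEIS points of exposed cells lie above the controls and the PBX3 points below, and PKNOX2 is above 2 CPM in the 3 controls at 30 weeks and near 0 in all other samples.

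For some of these genes it was the 30-week controls that departed from the earlier groups. PBX3 held 22.995 and 20.1 CPM in the 15-week controls, and 21.3 and 19.4 CPM in exposed cells at 15 weeks, close to the 30-week exposed samples. PKNOX2 was at 0 counts in the 15-week controls and at 3 and 0 counts in exposed cells. HOXB2, by contrast, held 10.98 and 14.6 CPM in the 24 h controls and 8.88 and 8.05 CPM in the 15-week controls, so the 24 h values overlapped the 30-week controls and all lay above the 30-week exposed samples. In HOXC4, HOXC5, HOXC6, HOXC8, HOXC9 and HOXC13 it was instead the 30-week exposed samples that lay above all samples of every other group. The exposure comparison at 30 weeks and the change of the controls with time share the 3 control samples of 30 weeks, so they are not separate measurements.

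Markers of other cell types moved with the same comparison. The 12 skeletal muscle markers summed to 433.6, 361.0 and 395.2 CPM in the 30-week controls and to 76.2, 93.1, 79.3 and 90.8 CPM in exposed cells. Other groups summed to between 109.5 and 179.5 CPM. The muscle list was thus high in the 30-week controls. Its most abundant gene over all samples was TTN, at 36.7, 53.2 and 54.0 CPM in the 30-week controls, where TNNT1, a troponin of slow muscle, held 235.4, 186.3 and 202.2 CPM. Of its 7 tested genes, 5 were called lower, against 11.7% of all genes, although MYOG and DES, 2 of the 5, passed the filter only through the 30-week controls. Among the 5 were MYOD1, a master regulator of muscle, at 105.8, 65.8 and 84.4 against 0.761, 0.315, 0.313 and 0.458 CPM, and CHRNA1, a muscle acetylcholine receptor subunit, at 47.7 ± 0.917 against 0.131 ± 0.219 CPM. MYF5, MYF6, PAX7 and CKM held 3 counts or fewer per sample.

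Keratins of the epithelial list went the other way. The 14 bronchial epithelial markers summed to 408.8, 317.1 and 313.1 CPM in the 30-week controls and to between 877.0 and 1095.8 CPM in exposed cells, carried by KRT8 and KRT18. Of 6 tested, KRT8, KRT18 and KRT19 were called higher, against 12% of all genes, and CDH1, EPCAM and FOXA1 were not called. CDH1 held 0.817, 0.650 and 0.394 CPM in controls and between 0.556 and 0.579 CPM in exposed cells. Earlier groups summed to between 778.1 and 1030.9 CPM, so the 30-week controls were the low group. Of 10 mesenchymal markers tested, of 12 listed, 3 were called higher (CDH2, COL1A2 and FN1) and 2 lower (COL1A1 and TWIST1), against 12% and 11.7% of all genes, with mean sums over the 12 of 2375 and 2449 CPM. The endothelial markers CDH5, KDR and VWF were called higher, from sums that did not exceed 3.01 CPM in any sample, as were CD14 of the blood and TUBB3 of the neural markers. The part of these cell type markers in the HOX and TALE differences was not tested. Control replicate 1 at 30 weeks also had the lowest TMM factor, 0.739, against 0.907 to 1.13 in all other samples.

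At 24 h and at 15 weeks no HOX or TALE gene was called between exposed and control cells. At 24 h, 0 of the 16740 genes were called (0.0%), with 277 genes at an unadjusted p under 0.05, 1 of them among the 29. At 15 weeks, 0 were called as well (0.0%), with 823 genes at that p, 4 of them among the 29. DESeq2 and limma-voom called none of the 29 either. The 4 genes were HOXC9, HOXC6, HOXC10 and MEIS3, chosen here after their values were seen. HOXC9 held 0.474 and 0.590 CPM in controls and 0.962 and 1.46 CPM in exposed cells (log2 fold change 1.17, SE 0.33, adjusted p = 0.651). HOXC6 had 2 and 2 counts in controls and 5 and 10 counts in exposed cells. MEIS3 held 34.5 and 35.4 CPM against 27.2 and 27.4 CPM (adjusted p = 0.989), the opposite side from 30 weeks. With 2 samples a group these differences were not past the threshold. As a sum, which was not tested, the HOXC genes at 15 weeks ran from 0.973 to 1.07 CPM in controls. In exposed cells the HOXC sum ran from 2.45 to 2.79 CPM. Of the 8 HOXC genes tested, 7 were higher in exposed cells, with a median log2 fold change of 1.93 over the 8, and none was called. The HOXA and HOXB sums, not tested either, did not overlap at 15 weeks, HOXA being higher and HOXB lower in exposed cells. With 2 samples a group, a lack of overlap says little. The HOXB sums did not overlap at 24 h, at 35.8 to 37.8 CPM in controls and 32.9 to 33.7 CPM in exposed cells. The HOXA and HOXC sums did overlap at 24 h.

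Whether the change at 30 weeks differed from that at 15 weeks was tested within the same model and on the same samples as those changes. Of the 29 genes, 4 passed, 2 with a positive difference and 2 with a negative one, against 2.66% and 2.08% of all genes. The count is a description, since PKNOX2, 1 of the 4, passed the filter only through the 30-week controls. The change in HOXC9 was larger at 30 weeks by 1.91 on the log2 scale (SE 0.41, adjusted p = 0.0108). For MEIS3 the difference was 1.17 (SE 0.20, adjusted p = 0.00221), from 15-week exposed cells under their controls to 30-week exposed cells over theirs. For PBX3 it was -0.89 (SE 0.22, adjusted p = 0.0292). PKNOX2 also passed (adjusted p = 0.0141), with no measure of size, since its counts were at 0 in most samples. Without control replicate 2 or exposed replicate 1 of 15 weeks the HOXC9 call was lost, and without the latter the PKNOX2 call too. The PBX3 call was lost when any of 8 single libraries was left out, and of the 4 only the MEIS3 difference was kept under every such omission. The count fell to 2 without either control replicate 2 or exposed replicate 1 of 15 weeks. The other HOXC genes did not pass this test, HOXC13 among them (2.22, adjusted p = 0.0951).

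Between 24 h and 15 weeks HOXA5, HOXA10, HOXA11 and HOXA13 rose in both arms. Control cells had 7 genes called higher and 2 lower, against 12.7% and 12.2% of all genes. Exposed cells had 9 called higher and 3 lower, against 13.5% and 12.5%. These counts are a description, since 17 of the 29 genes did not pass the filter on their 24 h samples. Among them were the 4 HOXA genes called higher in both arms, and HOXA3 and HOXC13, called higher in exposed cells. The comparisons of the control and the exposed arm share no samples. In exposed cells the count fell from 12 to 7 without replicate 2 of either time point. Cell type markers changed over the same interval. CDH1, FOXA1 and KRT19 of the bronchial epithelial list were called lower in both arms, FOXA1 going from 6.48 to 0.0611 CPM in controls, and among the muscle markers MYOD1 was called higher and TNNT1 lower in both. Of the neural markers PAX6 was called higher and TUBB3 lower in both arms, VWF was called higher in controls and CD14 lower in exposed cells. The mesenchymal markers summed to 4153 CPM in controls at 24 h and to 1720 CPM at 15 weeks, with FN1 called lower and PDGFRB and TWIST2 higher in both arms and COL1A2 lower in exposed cells. The part of these markers in the HOX changes was not tested. As a sum, the HOXA genes were at 0.279 and 0.320 CPM at 24 h in control and exposed cells and at 8.51 and 9.92 CPM at 15 weeks.

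HOXA13 (3209, chr7:27194364-27200091), the last gene of its cluster and a factor of the distal limb and hindgut, had 2 and 6 counts in controls at 24 h and 102 and 97 counts at 15 weeks. In CPM it went from 0.0693 and 0.210 to 3.22 and 2.86 (log2 fold change 4.41, SE 0.42, adjusted p = 1.62e-06). Exposed cells went from 0.0851 and 0.114 to 4.53 and 3.02 CPM (5.17, adjusted p = 5.74e-07). Both arms rose well beyond the spread of their replicates. HOXA10 (3206, chr7:27170605-27179861), a factor of the uterus and of blood cells, was at 0 counts in all 4 samples at 24 h, and at 1.39 and 1.56 CPM in controls and 1.89 and 1.62 CPM in exposed cells at 15 weeks. That is at least 14.1-fold higher in controls (adjusted p = 3.9e-06) and at least 13.8-fold higher in exposed cells (adjusted p = 3.01e-06), against the floor of 3 counts per library.

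HOXA5 (3202, chr7:27141052-27143681), which is required for normal lung development, was likewise at 0 counts at 24 h. It held 1.71 and 1.33 CPM in controls and 1.33 and 1.17 CPM in exposed cells at 15 weeks. These are at least 14.4-fold and at least 9.81-fold higher (adjusted p = 4.26e-06 and 1.02e-05). HOXA11 (3207, chr7:27181157-27185232), a limb and kidney factor, had 1 and 2 counts in controls and 3 and 0 counts in exposed cells at 24 h. It then held 1.90 and 2.09 CPM in controls and 1.99 and 2.99 CPM in exposed cells (adjusted p = 7e-06 and 4.74e-06). All 4 genes stayed within 1.32 to 2.86 CPM at 30 weeks. HOXA7 and HOXA9, which lie between HOXA5 and HOXA10, were at 0 counts throughout, and HOXA4 and HOXA6 did not exceed 11 and 3 counts.

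Promoters of HOXA10, HOXA11 and HOXA13, 3 of the 4 HOXA genes that rose, are shown to let the bases before their starts be compared. HOXA5 was not matched in the promoter table. Each is the 250 bases before a RefSeq start in GRCh38.p14, minus strand, 5′ to 3′, CpG in capitals. HOXA10 has 2 starts in the table, and the one farther upstream is printed; the window of the other (chr7:27174321-27174570) held 24 CpG and 65.2% G and C. The HOXA10 window printed (chr7:27179862-27180111) held 19 CpG and 58.8% G and C, the HOXA11 window (chr7:27185233-27185482) 11 CpG and 51.6%, and the HOXA13 window (chr7:27200092-27200341) 40 CpG and 78.0%.
HOXA10: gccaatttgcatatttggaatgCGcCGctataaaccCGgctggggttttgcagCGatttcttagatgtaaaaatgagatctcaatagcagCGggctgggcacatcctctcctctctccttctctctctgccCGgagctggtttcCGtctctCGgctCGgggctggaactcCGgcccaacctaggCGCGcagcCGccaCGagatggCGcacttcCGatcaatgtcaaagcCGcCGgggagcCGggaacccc
HOXA11: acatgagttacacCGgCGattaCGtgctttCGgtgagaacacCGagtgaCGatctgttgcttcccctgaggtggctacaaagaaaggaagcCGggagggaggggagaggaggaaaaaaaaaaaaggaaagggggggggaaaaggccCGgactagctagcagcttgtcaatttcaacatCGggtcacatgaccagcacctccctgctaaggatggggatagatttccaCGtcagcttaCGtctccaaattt
HOXA13: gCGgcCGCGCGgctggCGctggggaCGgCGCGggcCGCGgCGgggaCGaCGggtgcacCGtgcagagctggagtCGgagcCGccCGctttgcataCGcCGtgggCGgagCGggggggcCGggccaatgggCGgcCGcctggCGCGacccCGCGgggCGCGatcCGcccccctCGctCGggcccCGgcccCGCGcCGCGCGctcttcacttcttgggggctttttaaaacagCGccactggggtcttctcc
RefSeq promoters matched 26 of the 45 genes, in 34 distinct windows. Their median was 19 CpG, against 11 over all 35116 starts in the table. Searched on both strands, TGATTNAT, bound by PBX with HOX, occurred in 3 of the 34 windows (8.8%, HOXA2, HOXD11 and MEIS2) and in 2.5% of all starts. TGACAG, bound by MEIS and PKNOX, occurred in 3 windows (8.8%, HOXA2, HOXA4 and PBX3) and in 13% of all starts. TAATTA, a homeodomain core, occurred in 2 windows (5.9%, HOXD11 and HOXD3) and in 4.3%. None of the 4 printed windows held any of these letters.

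**Figure D5:**
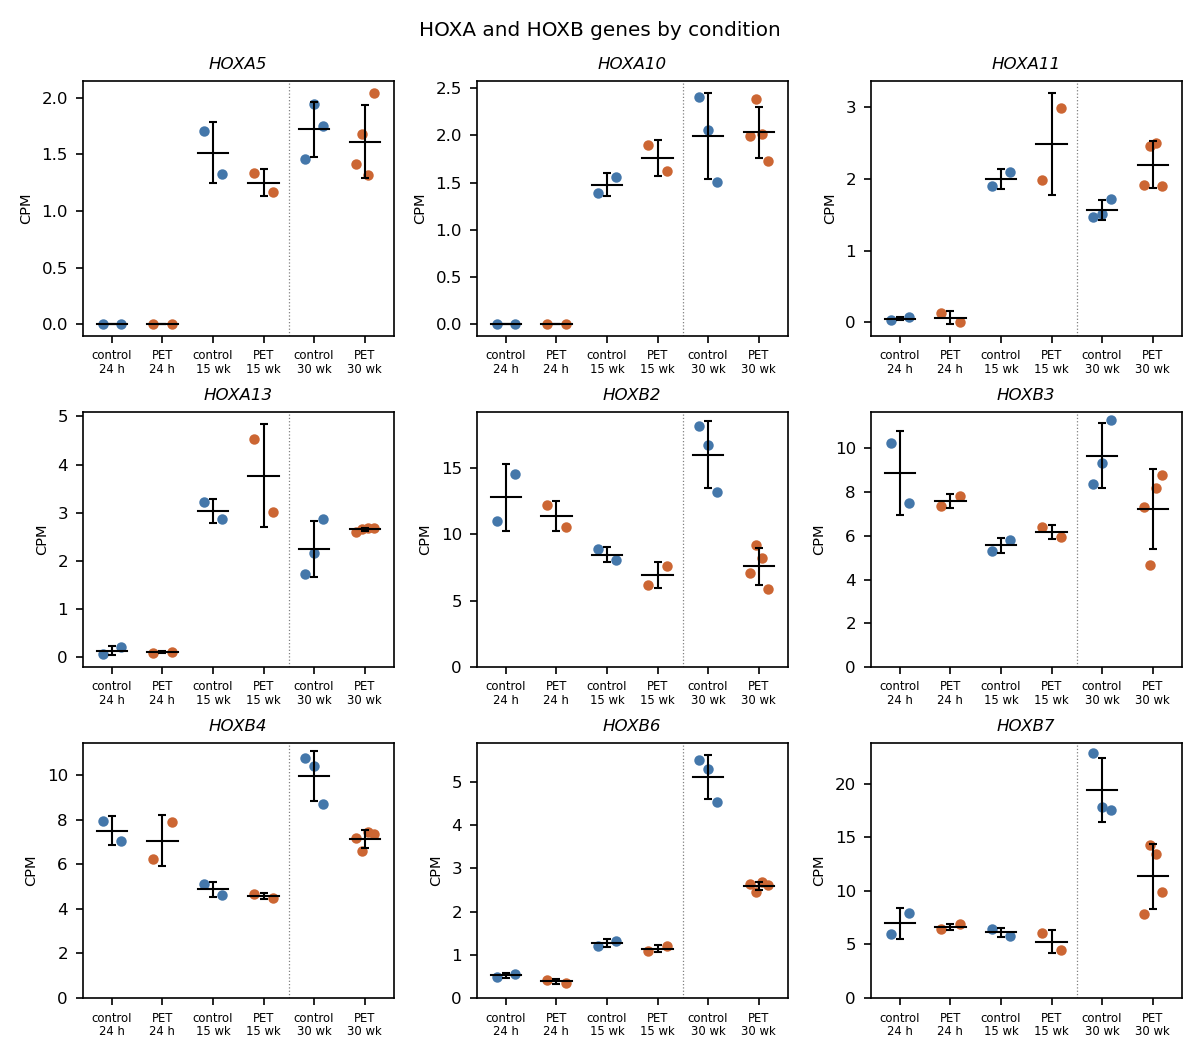
CPM of 4 HOXA and 5 HOXB genes in each sample (points) with the mean and SD of each group, by time point, with a dotted line between batch 1 and batch 2. The 4 HOXA genes are near 0 at 24 h and between 1.17 and 4.53 CPM at 15 weeks in both arms, while HOXB2, HOXB6 and HOXB7 have their highest means in the 30-week controls.

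Genes outside HOXA were called over the same interval. MEIS3 rose in controls from 18.6 and 20.7 to 34.5 and 35.4 CPM (log2 fold change 0.83, SE 0.16, adjusted p = 0.00123). HOXB6 rose in controls from 0.485 and 0.560 to 1.20 and 1.33 CPM (1.27, SE 0.28, adjusted p = 0.00295) and in exposed cells by 1.57 (adjusted p = 0.00111). MEIS2 rose in both arms, by 0.56 (SE 0.14, adjusted p = 0.00842) and 0.75 (SE 0.14, adjusted p = 0.00107). In the controls HOXB4 fell by 0.63 on the log2 scale (SE 0.18, adjusted p = 0.0191), and HOXC6 fell from 9 and 9 counts to 2 and 2 (adjusted p = 0.00753). In exposed cells HOXB4, HOXB2 and MEIS1 fell, by 0.63, 0.72 and 0.55 (adjusted p = 0.0194, 0.0288 and 0.0382), and HOXC9 rose by 1.32 (SE 0.35, adjusted p = 0.0105), with HOXA3 and HOXC13. Several of these calls rest on single libraries: HOXB4 was lost in controls without replicate 1 at 24 h or either replicate at 15 weeks, and HOXB2 and MEIS1 in exposed cells without any one of the 4 samples. HOXB4 was lost in exposed cells without replicate 2 at 24 h (adjusted p = 0.198) or either replicate at 15 weeks, and HOXC6 in controls without replicate 2 at 15 weeks or when only the groups compared were fitted. The HOXC13 call in exposed cells was lost without either 24 h replicate or without replicate 1 at 15 weeks (log2 fold change 0.68, adjusted p = 0.578), with limma-voom with and without surrogate variables, with the replicate block and when only the groups compared were fitted. The HOXA3 call was lost without either 24 h replicate or without replicate 2 at 15 weeks. HOXC9 was lost in exposed cells without replicate 2 of either time point, and MEIS2 in controls without replicate 1 at 24 h or replicate 2 at 15 weeks.

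From 15 to 30 weeks, where time and batch cannot be told apart, the HOXB genes and some HOXC genes rose in controls. Of the 29 genes, 13 were called higher and 3 lower in controls, against 25.6% and 24.6% of all genes, and all 8 tested HOXB genes were among the 13, with HOXC4, HOXC6 and HOXC8. The median log2 fold change was 1.84 over the 8 HOXB genes and 2.47 over the 8 tested HOXC genes, which held under 1 CPM in both groups. HOXB5 and PKNOX2 passed the filter only through the 30-week controls and HOXB13 not without them, so these counts are a description. Of the cell type markers, CHRNA1, DES, MYOD1, MYOG and TNNT1 of muscle, COL1A1, THY1, TWIST1 and VIM of mesenchyme and CDH1 were called higher in controls over this interval. KRT8, KRT18, KRT19, CDH2, COL1A2, FN1, TTN, CD14 and PAX6 were called lower, and the part of these markers was not tested. HOXB6 rose from 1.20 and 1.33 CPM to 5.50, 5.31 and 4.55 CPM (2.01, SE 0.22, adjusted p = 3.41e-06). HOXB7 rose from 6.44 and 5.81 CPM to the 30-week control values given above (1.66, SE 0.25, adjusted p = 5.75e-05). The cofactor PBX3 rose with them, by 1.28 (SE 0.17, adjusted p = 1.8e-05). PKNOX2 was at least 29.0-fold higher (adjusted p = 4.86e-05), and MEIS1 fell by 1.23 on the log2 scale (SE 0.17, adjusted p = 2.51e-05), with smaller falls in MEIS3 and MEIS2 (0.45 and 0.33, adjusted p = 0.0157 and 0.0413). The HOXB3, HOXB5, HOXB13, HOXC4, HOXC8, MEIS2 and MEIS3 calls were lost without control replicate 1 of 15 weeks, which left 9 calls. HOXB13, HOXC4, MEIS2 and MEIS3 were lost without control replicate 2 of 15 weeks as well. Over all 13 alternatives the HOXC4 call was lost in 7 and the MEIS2 call in 9, and HOXC6 was lost with limma-voom and surrogate variables (adjusted p = 0.0614).

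In exposed cells from 15 to 30 weeks, most tested HOXC genes and some HOXB genes rose. Of the 29 genes, 14 were called higher and 1 lower, against 23.3% and 22.7% of all genes, and 7 of the 8 tested HOXC genes were among the 14. Of the 8 tested HOXB genes, 4 were among them (HOXB4, HOXB6, HOXB7 and HOXB9). HOXA3, HOXC4, HOXC5, HOXC6 and HOXC11, all among the 14, passed the filter only through the exposed 30-week samples, so these counts are a description. Of the cell type markers, CDH1, FN1, THY1, TNNT1, KDR, VWF, CD14 and TUBB3 were called higher over this interval and MYOD1, TTN and PAX6 lower, and their part was not tested. HOXC6 rose from 0.155 and 0.325 CPM at 15 weeks (log2 fold change 3.60, SE 0.35, adjusted p = 2.94e-06). HOXC9 rose by 2.45 (SE 0.26, adjusted p = 5.56e-06), and HOXC8, from 0.124 and 0.260 CPM, by 4.19 (SE 0.52, adjusted p = 2.11e-05). HOXB6 and HOXB7 rose here too, by 1.18 and 1.11, as in the controls but to lower end levels. MEIS1 fell by 0.72 (SE 0.16, adjusted p = 0.00167), whereas MEIS3 rose by 0.72 (adjusted p = 0.000753). The MEIS1 call was lost without exposed replicate 2 of 15 weeks, and those of HOXA3, HOXC5, HOXC11 and PBX4 when any of several single libraries was left out.

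Per kilobase of canonical transcript, the order of the levels also shifted. In 24 h controls MEIS3, MEIS1 and PBX3 led with 9.71, 9.13 and 8.84 CPM per kb, followed by HOXB2 at 7.59, PBX2 at 5.36 and HOXB7 at 5.11. Replicates overlapped between all neighbours in this order except HOXB2 and PBX2. In 30-week controls the order was PBX3 at 18.4, HOXB7 at 14.2, MEIS3 at 12.6 and HOXB2 at 9.50. Replicates overlapped between PBX3 and HOXB7 and between HOXB7 and MEIS3, but not between MEIS3 and HOXB2. In 30-week exposed cells it was MEIS3 at 22.2, PBX3 at 9.34, HOXB7 at 8.35, PBX2 at 5.51, HOXC9 at 4.502 and HOXB2 at 4.497. After MEIS3, the replicates of each of these genes overlapped with those of the next, so no order is read among them. HOXC9 had been at 0.260 CPM per kb in 24 h controls. No HOXA gene was among the first 10 in any group.

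The regulators of HOX clusters were counted in lists. Polycomb complexes keep HOX clusters silent, trithorax complexes keep them active, and retinoic acid switches them on from the anterior end. Their counts are to be read against the 12% of all genes called higher and 11.7% called lower at 30 weeks. Of 12 PRC2 genes tested, none was called at 30 weeks in either direction. From 15 to 30 weeks 6 of the 12 were called lower in each arm, against 24.6% of all genes in controls and 22.7% in exposed cells, EED, EPOP, EZH2, MTF2 and RBBP7 in both. Over the same interval AEBP2, PHF1 and PHF19 were called higher in controls (25.6% of all genes) and PHF19 in exposed cells (23.3%). From 24 h to 15 weeks 4 of the 12 were called higher in controls and 5 in exposed cells, against 12.7% and 13.5% of all genes, and none lower. Of 15 PRC1 genes, 1 was called higher and 2 lower in exposed than in control cells at 30 weeks. The former was CBX2, a reader of H3K27 methylation, at 2.67 ± 0.529 CPM in controls and 9.71 ± 0.706 CPM in exposed cells (log2 fold change 1.86, SE 0.15, adjusted p = 2.52e-07). CBX2 held 9.06 CPM in 15-week controls and 14.3 CPM in 24 h controls, so the 30-week controls were its low group. The lower genes were PHC2 and PCGF3, with log2 fold changes of -0.50 and -0.32. From 24 h to 15 weeks 2 PRC1 genes were called higher and 1 lower in controls, and 3 higher and none lower in exposed cells. From 15 to 30 weeks 4 were called higher and 4 lower in controls, and 4 higher and 3 lower in exposed cells. Of 12 trithorax and demethylase genes, 1 was called for exposure at 30 weeks, RBBP5, higher by 0.54. From 15 to 30 weeks 4 of the 12 were called higher and 3 lower in controls, RBBP5 among the lower. In exposed cells 3 were called higher and 1 lower over that interval. From 24 h to 15 weeks none was called in controls, and 2 were called higher and none lower in exposed cells.

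In the retinoic acid list, 11 of 16 genes were tested, with 1 called higher and 1 lower at 30 weeks. ALDH1A3, which makes retinoic acid, was higher in exposed cells at 15.0 ± 0.640 against 2.57 ± 0.354 CPM (2.55, adjusted p = 1e-09). It had been at 310 CPM in 24 h controls and 32.4 CPM in 15-week controls. CRABP2, which carries retinoic acid to its receptor, was at 25.0 ± 3.66 CPM in controls and 0.441 ± 0.225 CPM in exposed cells (-5.81, adjusted p = 5.4e-09). CRABP2 had been at 2.49 CPM in 24 h controls and 2.43 CPM in 15-week controls, and was called higher in controls from 15 to 30 weeks (3.35, from the same 3 control samples) and not called in exposed cells. Of 5 early activators listed, 1 was tested, GDF11, and it was not called for exposure at 30 weeks. From 15 to 30 weeks GDF11 was called higher in controls (0.54), against 25.6% of all genes, and was not called in exposed cells.

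Among other TALE homeobox genes, 7 of 9 were tested, with 3 called higher and 1 lower, against 12% and 11.7% of all genes. IRX1 was at 0.527 ± 0.0901 CPM in controls and 4.23 ± 0.817 CPM in exposed cells (2.98, adjusted p = 4.83e-07), and IRX2 and IRX4 were higher too. IRX3, of the other Iroquois cluster, was at 5.96 ± 0.363 and 0.652 ± 0.102 CPM (-3.18, adjusted p = 8.38e-07). From 15 to 30 weeks IRX3 was called higher in controls, with the same 30-week control samples, and was not called in exposed cells. IRX1, IRX2 and IRX4 share a gene cluster, and all 3 were called lower from 15 to 30 weeks in both arms. At 24 h control cells held 15.8 CPM of IRX1 and 64.2 CPM of IRX2.

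Long noncoding RNAs of the clusters followed the coding genes in part. Of 16 in the table, 7 were tested, and 3 were called higher at 30 weeks and none lower, against 12% and 11.7% of all genes. All 3 came from the HOXC cluster. HOTAIR, transcribed between HOXC11 and HOXC12, was at 0.275 ± 0.144 CPM in controls and 1.46 ± 0.459 CPM in exposed cells (2.42, SE 0.50, adjusted p = 0.00236). HOXC13-AS was at 0.261 and 1.47 CPM (2.45, adjusted p = 0.00358), and HOXC-AS1, which passed the filter only through the exposed 30-week samples, at 0.0361 and 0.747 CPM (adjusted p = 0.00249). Antisense RNAs overlap coding genes, and the strand setting of the counting is not given in the sources used here. Between 24 h and 15 weeks in controls, HOTAIRM1, at the anterior end of HOXA, rose from 1.50 to 4.56 CPM (1.60, adjusted p = 0.000677), and HOXA11-AS from 0 counts to 0.459 CPM. In exposed cells both were called higher as well, with HOXB-AS3 and HOTAIR, against 13.5% of all genes. HOTAIR went from 4 and 0 counts to 32 and 26, with 14 and 7 in the 15-week controls. From 15 to 30 weeks HOTAIRM1 was called higher in controls. In exposed cells HOXC-AS1 and HOXC13-AS were called higher and HOXA11-AS lower. Of 14 tested genes beside the clusters, SKAP2, which flanks HOXA, was called higher at 30 weeks (0.59, adjusted p = 0.00259) and had risen in controls from 4.18 to 12.2 CPM by 15 weeks. ATP5MC2, which lies near HOXC, was called lower (-0.62, adjusted p = 0.0249). No gene of these lists was called for exposure at 24 h or 15 weeks.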

How the data were processed

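The authors filtered the reads with Rfastp (reads under 20 bases discarded), aligned them to the human genome (GRCh38) and obtained gene counts with featureCounts of Rsubread. The authors deposited these raw counts, which are not normalized. Strand setting and handling of multimapping reads are not given in the sources used here. Genes were named by Entrez number (27745 of 28395 with a symbol).

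All 15 samples were fitted in R 4.3.3 with edgeR 4.0.16 (filterByExpr on the 6 groups, 16740 genes kept, TMM scaling, glmQLFit with 1 mean per group, glmQLFTest), with Benjamini-Hochberg adjustment over all genes tested for each of 8 comparisons. The authors used limma-voom with surrogate variables, which was an alternative here (limma 3.58.1, sva 3.50.0, 2 surrogate variables), as were DESeq2 1.42.0, other filters and scalings, the replicate number as a block and each replicate left out. Folds against a group at 0 counts used a floor of 3 counts per library. The procedure was tested on simulated data. The 95% intervals are normal intervals around the fitted log2 fold changes, built from that approximate SE. They make no allowance for the small number of samples and may be too narrow.

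The members, the gene lists and the rule for named genes were chosen with earlier results of these data known. The rule names the 12 genes with the smallest adjusted p at 30 weeks, the TALE genes called there, the genes called in the difference between 15 and 30 weeks, and the first 3 in each direction over time. Coordinates and promoters are from RefSeq GRCh38.p14, and transcript lengths from GENCODE. Of other TALE genes, only a list of 9 was counted, and 3 list genes (1 each of the PRC1, retinoic acid and early activator lists, whose counts are therefore partial) are not reported here and were removed once values were known.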

Additional observations from a re-analysis of the deposited data

Results flagged for a closer look

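HOXC8 in exposed replicate 2 at 30 weeks stood apart from the other 3 exposed samples, at 2.66 CPM against 3.73 CPM in the nearest. Its gap was 0.845 of the range of the group, above Dixon's 95% critical value for 4 samples. This check was run on 28 genes, and chance marks about 1 in 20 groups. The sample remained above all 3 controls.

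For 4 genes the change with exposure at 30 weeks differed from that at 15 weeks by the test of the difference itself. It was larger by 1.91 on the log2 scale for HOXC9 and by 1.17 for MEIS3, whose exposed samples were below the controls at 15 weeks and above them at 30 weeks. It was -0.89 for PBX3 and -12.86 for PKNOX2, the latter a fitted value for a gene at 0 counts in most samples, which gives no size. The 2 time points lie in different batches, so time and batch cannot be told apart in these differences.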

How the results depend on the processing

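The count of 18 HOX and TALE genes called at 30 weeks was 18 with DESeq2, 19 with limma-voom, 15 with limma-voom and surrogate variables, 15 when only the groups compared were fitted, 17 without a filter on low counts or with upper-quartile scaling, and 11 when a fold change of at least 2 was required. Leaving out 1 replicate gave 11 to 18 calls at 30 weeks, 2 to 5 for the difference between 30 and 15 weeks (4 with all samples), 6 to 9 for controls (9) and 7 to 9 for exposed cells (12) between 24 h and 15 weeks, 9 to 15 for controls (16) and 11 to 16 for exposed cells (15) between 15 and 30 weeks. Where this left 1 sample in a group, that sample was assumed to vary like the others. No called gene reversed its direction under any alternative run. At 30 weeks, 24 of 270 combinations of gene and alternative lost the call, 10 of them for MEIS2. HOXA3, HOXB2, HOXB6, HOXC4, HOXC6, HOXC8, HOXC9, HOXC13, MEIS3, PBX3 and PKNOX2 lost it in none of these 15 alternatives, although HOXB6, MEIS3 and PBX3 were under the fold change of 2. Of these genes, HOXA3, HOXC4 and HOXC6 passed the filter only through the exposed 30-week samples, and PKNOX2 only through the 30-week controls. The filter was not redone when a replicate was left out, so for them the kept calls are a description. No alternative scaling moved the median over all genes beyond 0.0514 on the log2 scale.

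With the replicate block, 18 genes were called at 30 weeks (17 of them shared with the fit without it, MEIS2 lost), 4 for the difference, 10 and 11 between 24 h and 15 weeks and 14 and 13 between 15 and 30 weeks in controls and exposed cells. Samples with the same number did not regularly deviate together (correlations of -0.06 at 24 h, 0.03 at 15 weeks and -0.12, 0.30 and 0.10 at 30 weeks). At 30 weeks control replicate 3 and exposed replicate 1, of unlike number, reached 0.36. The numbers were therefore not taken to pair the samples, although with 2 samples a group the check can hardly show a pairing. HOXC5, HOXC10, HOXC11, HOXC12 and HOXB13 rest on few counts per sample, which limits what can be said of them.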
